A study of Homo sapiens with 17 samples.

Results

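The cytosolic HSP40 co-chaperones described here are 7 genes, DNAJA1, DNAJA2, DNAJB1, DNAJB2, DNAJB4, DNAJB6 and DNAJC7, chosen by symbol as members of the cytosolic J-domain family. They were chosen with earlier results of these data known. All 7 are among the 14085 genes of one deposited table and the 13616 genes of the other, and all 7 passed the filter on low values in both. Messenger RNA was measured in 17 libraries of PC3M, an established line of metastatic human prostate cancer cells, by QuantSeq FWD, a method that captures a single tag close to the 3' end of a transcript. The first table holds 8 libraries in 4 groups of 2. HSF1 knockout (KO) cells with MG132 are labelled A and B, and the other groups are siJMJD6 cells with MG132, siNT cells with MG132 and siNT cells with DMSO. MG132, a proteasome inhibitor, was given at 2.5 µM for 4 hours, and DMSO is its solvent. The second table holds 9 libraries in 3 groups of 3, namely siJMJD6 cells after heat shock, siNT cells after heat shock and siNT cells kept without stress (basal). Cells were heated to 42 °C for 1 hour and recovered for 2 hours. siNT is a non-targeting siRNA and siJMJD6 an siRNA against the oxygenase JMJD6, each transfected for 72 hours. No siRNA is named in the labels of the KO cells, and the labels do not say whether A and B are separate clones. No unstressed siJMJD6 or KO libraries are analysed here, and a difference under stress therefore cannot be told apart from one present before stress.

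HSP40 proteins carry a J domain, with which they stimulate the ATPase of HSP70 and so fix its grip on a misfolded client. The J protein also picks the client and so directs HSP70 to refolding, to disaggregation or to the proteasome. In stressed cells the transcription factor HSF1 binds heat shock elements, runs of the unit GAA and its reverse complement, and activates inducible chaperone genes. DNAJB1 is the classical inducible HSP40, and with HSP70 it also restrains HSF1. Proteasome inhibition and heat both load the cytosol with misfolded protein. In GENCODE 29 (GRCh38) DNAJA1 lies at chr9:33025211-33039907, DNAJB2 at chr2:219279267-219286900, DNAJB4 at chr1:77979175-78017964 and DNAJB6 at chr7:157335381-157417439 on the plus strand. DNAJA2 lies at chr16:46955362-46973788, DNAJB1 at chr19:14514770-14529770 and DNAJC7 at chr17:41976433-42021376 on the minus strand. Annotated pseudogenes of DNAJA1 and DNAJB1 are not listed in the tables, so tags they may share with the genes could not be followed.

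The letters of heat shock elements were looked for near the starts of these genes in RefSeq (GRCh38.p14). Promoter windows from 250 bases before to 50 bases after an annotated start were found for all 7 genes, 11 windows in all. They were searched for the paired units GAANNTTC and TTCNNGAA, each its own reverse complement, and for the 3-unit runs GAANNTTCNNGAA and TTCNNGAANNTTC, which are reverse complements of each other and contain both paired forms. A paired unit was found in 4 of the 7 genes, and 16.2% of the 27305 genes with a window hold one. Genes with more windows have more chances of a match. By window, 5 of the 11 held a paired unit, as did 13.5% of all 35116 windows. A 3-unit run was found in DNAJA1 and DNAJB6, and 0.608% of genes hold one. Windows of DNAJA2, DNAJB2 and DNAJC7 held no match to these letters. For each gene with a match, the stretch with the most bases in motifs follows, with the motif in capitals, 5' to 3' on the gene's strand.
DNAJB1, chr19:14518417-14518494, minus strand: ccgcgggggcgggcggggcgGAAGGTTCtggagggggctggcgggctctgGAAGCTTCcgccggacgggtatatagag
DNAJB6, chr7:157336853-157336905, plus strand: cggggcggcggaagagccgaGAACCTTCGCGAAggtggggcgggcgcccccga
DNAJB4, chr1:78004821-78004868, plus strand: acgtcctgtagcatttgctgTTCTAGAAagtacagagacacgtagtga
DNAJA1, chr9:33025268-33025296, plus strand: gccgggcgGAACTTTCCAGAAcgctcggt
Counting the first transcribed base as 1, the paired units of DNAJB1 lie at -77 to -70 and -47 to -40 of one of its 3 annotated starts, and another window of DNAJB1 holds a paired unit at 2 to 9. The 3-unit run of DNAJB6 lies at -131 to -119 and the paired unit of DNAJB4 at -98 to -91. The run of DNAJA1 lies just after the start, at 4 to 16, and a further paired unit lies at -198 to -191. A match is a description of the letters, since these data do not measure binding.

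**Figure D1:**
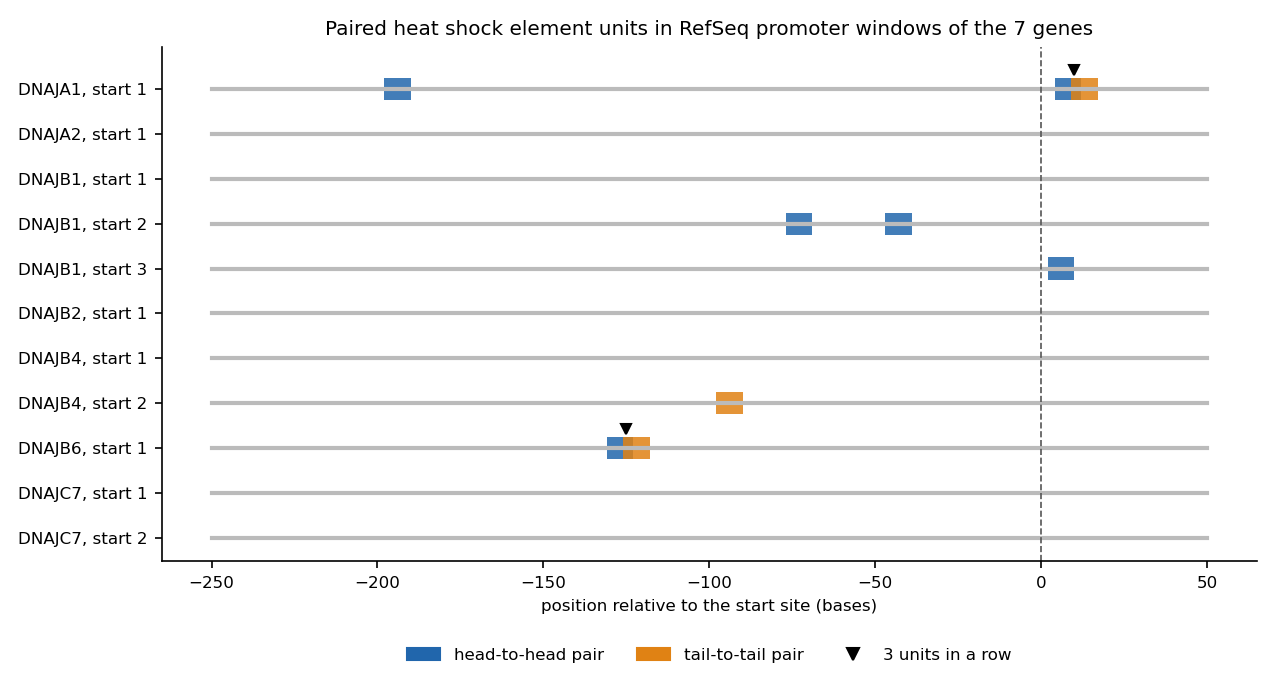
Paired heat shock element units in the 11 RefSeq promoter windows of the 7 genes, with position relative to the start in bases on the x axis and 1 line per annotated start. Coloured blocks are paired units and triangles mark 3-unit runs, which are in DNAJA1 and DNAJB6, while the windows of DNAJA2, DNAJB2 and DNAJC7 are empty.

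Column totals of normalised counts, the authors' scaled tag counts, lay between 1505826 and 1819640. From the steps between low values 1 read was worth about 0.45 to 2.14 normalised counts, which puts the libraries at roughly 0.762 M to 3.82 M reads, both extremes being siNT basal libraries with uncertain estimates. JMJD6 averaged 21.6 ± 7.08 normalised counts in siJMJD6 cells and 148 ± 26.1 in siNT cells under MG132 (SD, n = 2 each), and 10.7 ± 3.58 in siJMJD6 cells and 224 ± 25.3 in siNT cells after heat shock (SD, n = 3 each). HSF1 averaged 230.3 ± 77.6 in KO cells and 1786 ± 139 in siNT cells under MG132 (SD, n = 2 each). In siJMJD6 cells under MG132 HSF1 averaged 2592 ± 532 (SD, n = 2), which limma did not call against siNT cells (adjusted p = 0.218). After heat shock it averaged 1421 ± 53.3 in siJMJD6 and 1199 ± 58.2 in siNT cells (SD, n = 3 each, limma adjusted p = 0.00573). JMJD6 averaged 79.9 ± 0.783 in KO cells under MG132 and 79.8 ± 12.6 in siNT DMSO cells (SD, n = 2 each). In the separately normalised heat shock table it averaged 104 ± 1.41 in siNT basal cells (SD, n = 3). The 3' tags do not check the deletion in HSF1, since the sources used here do not give the part deleted. Epithelial genes (6 of 6 listed) summed to 1479 or more in every library, genes of mesenchymal traits (VIM, CD44 and FN1, 3 of 3 listed) to 669 or more, and 0 of 5 blood and immune genes were listed. In the MG132 table KRT18 (725 to 1401) and KRT19 (516 to 993) made up most of the epithelial sum, and KRT7 reached at most 3.57. Values below are normalised counts, effects are log2 fold changes ± standard error (SE) of the normalised count plus 1, and the words rose and fell are kept for genes with limma's Benjamini-Hochberg adjusted p under 0.05. Whether replicates came from separate cultures is not stated in the labels, so the p-values rest on the spread among these libraries, and that spread may be technical. With so few libraries, groups often did not overlap. This held for 36.3% to 61.1% of tested genes in comparisons of the MG132 table. In the heat shock table it held for 19.8% to 54%.

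MG132 raised DNAJB1 in siNT cells more than 6-fold, and no other member passed the test. DNAJB1 had 11245 and 11139.8 normalised counts in the siNT MG132 libraries, against 1580.3 and 1977 in the siNT DMSO libraries. Both MG132 libraries stood far above both DMSO libraries and close to each other. The effect was 2.66 ± 0.25, a fold of 6.33 with a 95% interval of 4.34 to 9.24 (adjusted p = 0.000355). Thus 1 of the 7 members rose, where 20 of 9778 tested genes (0.205%) rose and 0.266% were called in either direction. In bulk RNA, more cells with a transcript and more of it per cell cannot be told apart. DNAJB1 overlaps TECR on the other strand, though not at its own 3' end.

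DNAJB6, DNAJB2, DNAJA1 and DNAJB4 had higher means under MG132 without passing the test. DNAJB6, which keeps polyglutamine proteins from aggregating, had 365 and 638 normalised counts in the siNT MG132 libraries, against 174 and 293 in the siNT DMSO libraries. The groups did not overlap, but each spread more widely than the gap between them, and the effect was 1.09 ± 0.31 (adjusted p = 0.391). DNAJB2, which binds ubiquitin chains and passes clients to the proteasome, had 119 and 113 normalised counts with MG132, against 63.0 and 66.2 with DMSO. These libraries were well separated, with an effect of 0.83 ± 0.31 (adjusted p = 0.712). DNAJA1, a zinc-finger HSP40 that presents unfolded clients to HSP70, had 250.2 and 240.3 normalised counts with MG132, against 136 and 162 with DMSO, an effect of 0.72 ± 0.25 (adjusted p = 0.614). DNAJB4, a close relative of DNAJB1, was detected at few reads, with 46.0 and 4.70 normalised counts under MG132, against 7.90 and 1.17 with DMSO. Its MG132 libraries differed from each other more than the groups did, and the effect of 1.90 ± 0.99 could not be told from that spread (adjusted p = 0.904). DNAJB4 passed the filter in this table through single libraries of the siNT MG132 and siJMJD6 MG132 groups.

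DNAJA2 and DNAJC7 had the smallest effects of MG132. DNAJA2, the second zinc-finger HSP40 and a general refolding partner of HSP70, had 57.7 and 89.9 normalised counts with MG132, against 50.8 and 54.7 with DMSO. DNAJC7, whose tetratricopeptide repeats hold both HSP70 and HSP90, had 1100.0 and 806 with MG132, against 859 and 778 with DMSO. The effects were 0.44 ± 0.32 for DNAJA2 and 0.20 ± 0.25 for DNAJC7 (adjusted p = 0.938 and 0.973), and the DNAJC7 libraries of both groups overlapped. The last 1299 bases of DNAJC7 overlap the end of CNP on the opposite strand, and tags of CNP may be among its counts, because the sources used here do not give the strand setting of the counting. The median effect over the 7 members was 0.83, against 0.00 over all tested genes.

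**Figure D2:**
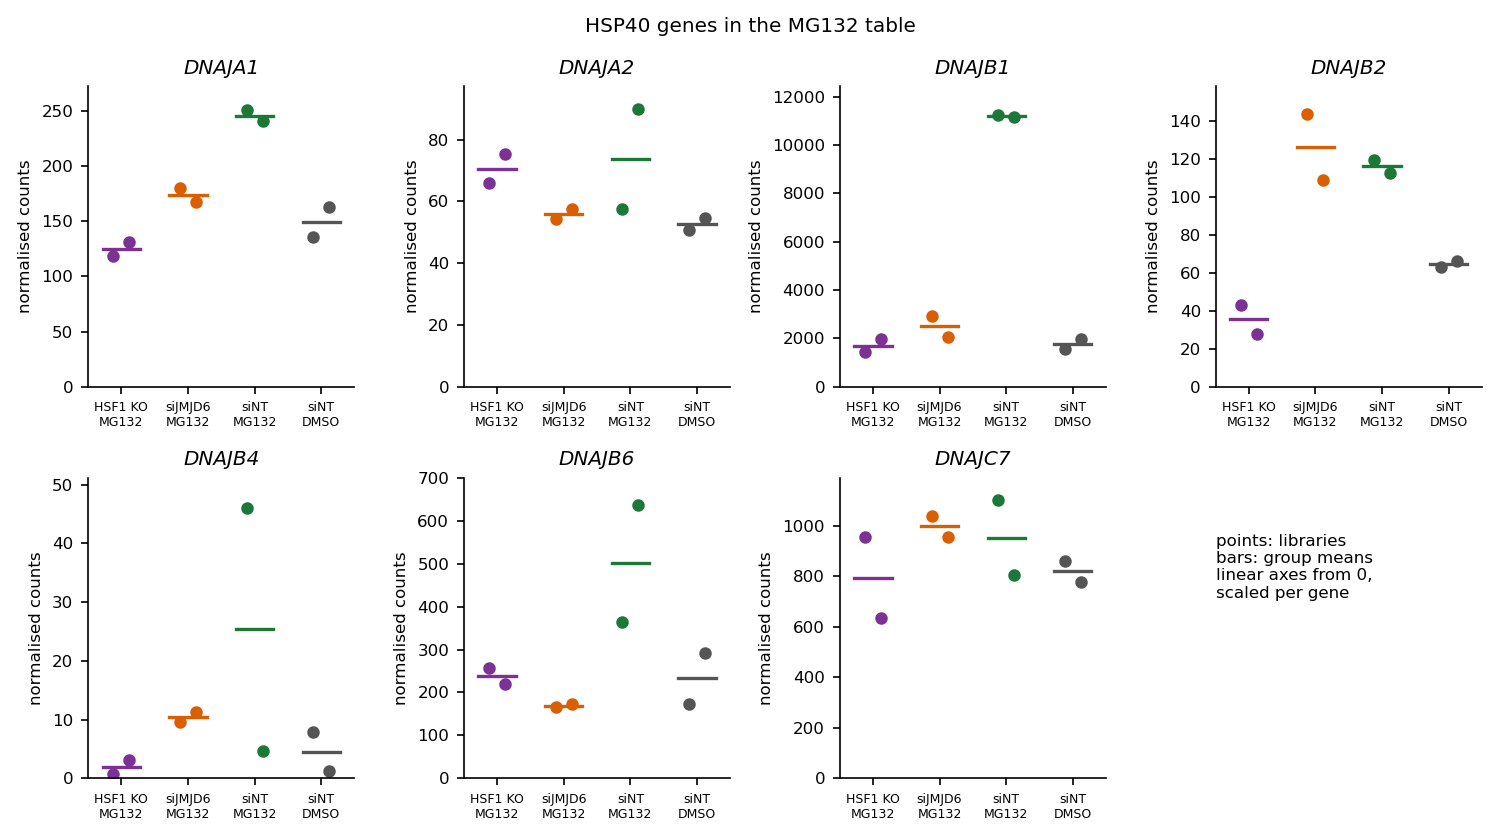
Normalised counts (linear y axes from 0, scaled per gene) of the 7 genes in HSF1 KO, siJMJD6 and siNT cells with MG132 and siNT cells with DMSO. Points are libraries (2 per group) and bars are group means. DNAJB1 reached 11245 and 11139.8 in siNT cells with MG132 and stayed at 2926 or less in every other library.

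The next comparison addressed what knockdown of JMJD6 changes in cells under MG132. DNAJB1 was 4.53-fold lower and DNAJB6 2.84-fold lower in siJMJD6 cells. Knockdown libraries of the MG132 group held 2926 and 2081 normalised counts of DNAJB1, against 11245 and 11139.8 in the siNT MG132 libraries. Both knockdown libraries lay far below both siNT libraries (-2.18 ± 0.25, adjusted p = 0.000278). They held 166 and 173 normalised counts of DNAJB6, against 365 and 638 in the siNT MG132 libraries. The knockdown libraries were close together and both below the lower siNT library (-1.50 ± 0.31, adjusted p = 0.00857). Without siNT MG132 library 2, the higher one, DNAJB6 no longer passed the test (-1.10, adjusted p = 0.0769). The 2 falls among 7 members stand beside 719 falls among 9778 tested genes (7.35%), with 13.6% called in either direction.

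The other 5 members did not pass the test in siJMJD6 cells under MG132, and their intervals say how large a difference could be. DNAJB2 stood at 143 and 109 in siJMJD6 cells with MG132, against 119 and 113 in the siNT MG132 libraries. The knockdown libraries enclosed the siNT libraries, and the 95% interval of the fold ran from 0.676 to 1.71. DNAJA1 had 179.7 and 167 in siJMJD6 cells, against 250.2 and 240.3 in siNT cells, which was lower in both libraries but not called (-0.50 ± 0.25, adjusted p = 0.204). The interval of its fold ran from 0.491 to 1.02. DNAJB4 had 9.54 and 11.2 in siJMJD6 cells, between the 46.0 and 4.70 of siNT cells. The interval of its fold, 0.159 to 3.02, leaves a large difference in either direction possible. DNAJC7 had 1039 and 956 in siJMJD6 cells, against 1100.0 and 806 in siNT cells, and DNAJA2 had 54.2 and 57.6, against 57.7 and 89.9. The interval of the fold was 0.725 to 1.54 for DNAJC7 and 0.485 to 1.25 for DNAJA2. Fibroblast and endothelial genes (3 of 5 listed, DCN and VWF not among them) summed to 34.2 to 59.6 in siJMJD6 cells and 129.7 to 252 in the siNT MG132 libraries. Over all libraries of this table COL1A2 ran from 17.1 to 329, while COL1A1 reached at most 30.9 and PECAM1 at most 23.4. The sum therefore mostly follows 1 gene. Mesenchymal genes summed to 669 to 890.2 in siJMJD6 cells and 909 to 938 in siNT cells, and epithelial genes to 2143 to 2474 in siJMJD6 cells and 1479 to 2026 in siNT cells. The part of these 3 lists in the HSP40 results was not tested.

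HSF1 knockout under MG132 left DNAJB1 at 0.150 of its siNT level and DNAJB2 at 0.306. DNAJB1 was at 1429 (A) and 1981 (B) normalised counts in HSF1 KO cells, against 11245 and 11139.8 in the siNT MG132 libraries. Every KO library lay far below the siNT libraries (-2.73 ± 0.25, adjusted p = 7.38e-05). DNAJB2 was at 43.2 (A) and 27.9 (B) in HSF1 KO cells, against 119 and 113 in the siNT MG132 libraries. The groups were clearly apart (-1.71 ± 0.31, adjusted p = 0.0165), but the call was lost when 1 of 3 libraries was left out. The adjusted p was 0.219 without KO library B, 0.141 without siNT MG132 library 1 and 0.0931 without siNT MG132 library 2, at effects of -1.40 to -1.75. The 2 falls among 7 members stand beside 98 falls among 9778 tested genes (1%), with 1.28% called in either direction.

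DNAJA1, DNAJB4 and DNAJB6 were lower in both KO libraries without passing the test. In this comparison 21.7% of tested genes had both KO libraries below both siNT libraries, and 45.3% had groups without overlap. DNAJA1 was at 118 (A) and 131 (B) in HSF1 KO cells, against 250.2 and 240.3 in the siNT MG132 libraries. Its effect of -0.97 ± 0.25 had an adjusted p of 0.0869, and of 0.0472 when only the 4 libraries compared were fitted. DNAJB6 had 256 and 219.7 in KO cells, against 365 and 638 in siNT cells, with no overlap (-1.02 ± 0.31, adjusted p = 0.165). DNAJB4 had 0.81 and 3.12 in KO cells, about the worth of 1 to 3 reads, against 46.0 and 4.70 in siNT cells (-2.58 ± 0.99, adjusted p = 0.281). DNAJA2 had 65.9 and 75.3 in KO cells, within the 57.7 and 89.9 of siNT cells, and DNAJC7 had 955 and 633, against 1100.0 and 806. The median effect over the 7 members was -1.02, against 0.01 over all tested genes. The same fibroblast and endothelial genes summed to 82.6 to 106 in KO cells, mesenchymal genes to 703 to 744 and epithelial genes to 2085 to 2091. The first 2 sums lay below their siNT MG132 ranges and the third above, and the part of these lists in the results was not tested.

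Set against each other under MG132, HSF1 KO and siJMJD6 cells differed in DNAJB2. DNAJB2 had 43.2 and 27.9 normalised counts in KO libraries, against 143 and 109 in siJMJD6 libraries. Every KO library lay below every siJMJD6 library, as was so for 28.7% of tested genes. The fold was 0.284 with a 95% interval of 0.178 to 0.452 (-1.82 ± 0.31, adjusted p = 0.0018). DNAJB2 was the 1 member called of 7, where 9.69% of tested genes fell and 20.8% were called in either direction. DNAJB1, at 1429 and 1981 in KO libraries against 2926 and 2081 in siJMJD6 libraries, did not pass the test (-0.55 ± 0.25, adjusted p = 0.139), with an interval of the fold of 0.467 to 0.995. Without siJMJD6 library 2 it did (-0.80, adjusted p = 0.0402). DNAJB6, at 256 and 219.7 in KO libraries, lay above both siJMJD6 libraries at 166 and 173, which did not pass the test (0.49 ± 0.31, adjusted p = 0.291).

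Against siNT cells with DMSO, where both the perturbation and MG132 differ, limma called 0 of the 7 members in either group, with 13.4% of tested genes called for siJMJD6 MG132 and 0.931% for HSF1 KO MG132. At an unadjusted p under 0.05 each comparison had 1 member, and in both it was DNAJB2. Here and below, the share of all tested genes at that unadjusted threshold was not counted, so such counts have no background beside them. DNAJB2 had 143 and 109 normalised counts in siJMJD6 MG132 libraries, against 63.0 and 66.2 in siNT DMSO libraries, an effect of 0.94 ± 0.31 (adjusted p = 0.0613). When the limma fit held a block for the replicate numbers, DNAJB2 passed the test (adjusted p = 0.0266). Without siJMJD6 library 2, the lower one, it passed the test (1.14, adjusted p = 0.0447). In HSF1 KO cells, at 43.2 and 27.9, it lay below both DMSO libraries (-0.88 ± 0.31, adjusted p = 0.243). For DNAJB1 the fold over DMSO was 1.40 in siJMJD6 MG132 cells, with an interval of 0.957 to 2.04, and 0.952 in HSF1 KO MG132 cells, with an interval of 0.653 to 1.39. These comparisons share their DMSO libraries. In siNT DMSO libraries fibroblast and endothelial genes summed to 238 to 353 and epithelial genes to 1634 to 1822, beyond the ranges of siJMJD6 and KO cells given above, and their part in these values was not tested.

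**Figure D3:**
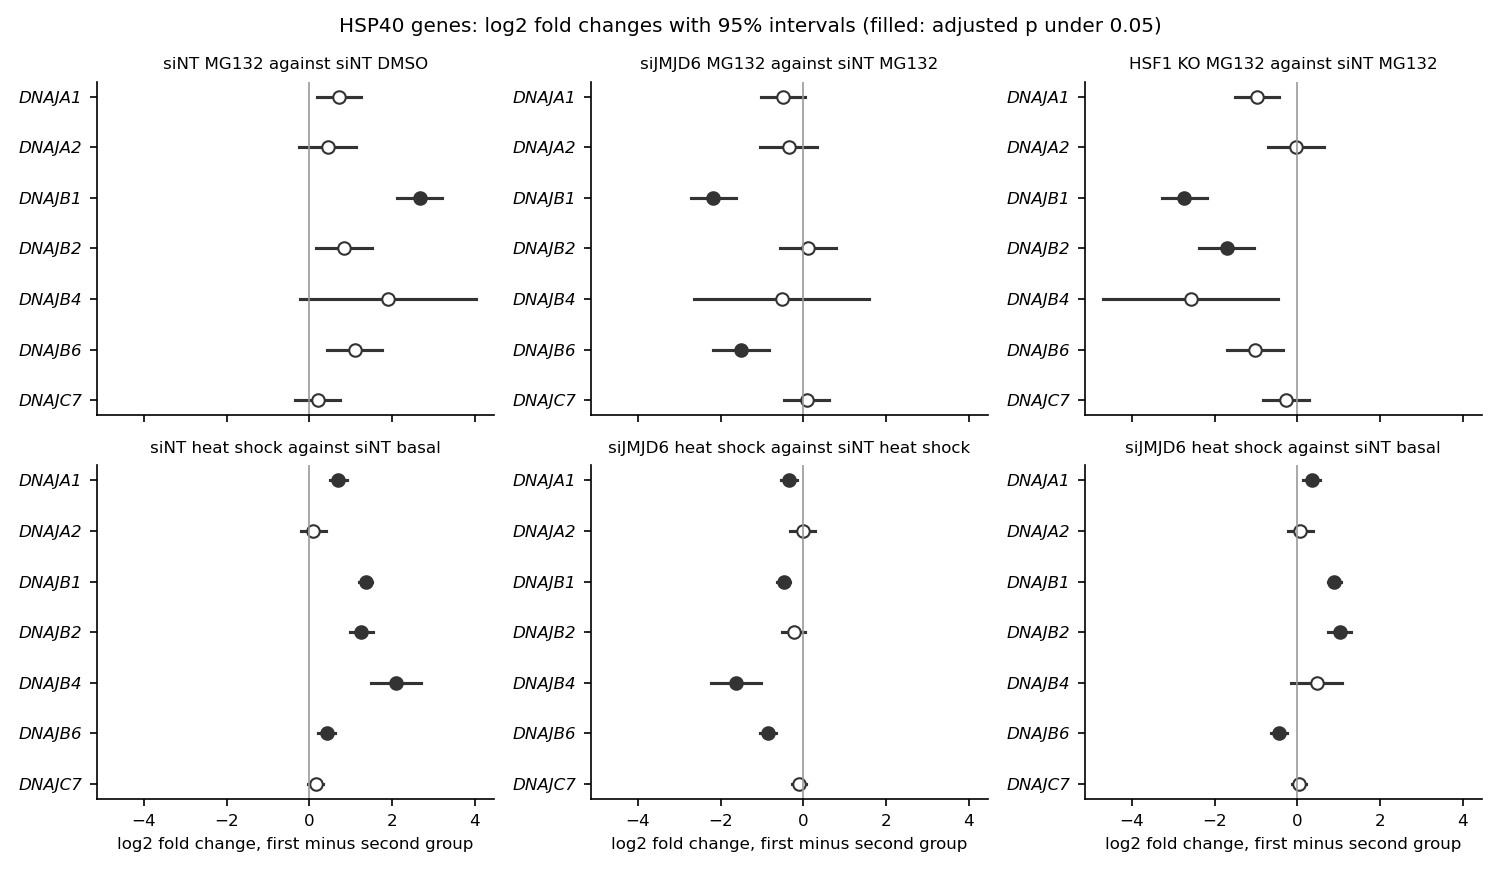
Log2 fold changes (x axis, first group minus second, normalised counts plus 1) of the 7 genes in 6 comparisons, with 95% intervals; filled points passed the test. Intervals are wider in the MG132 table, and DNAJB1 is the gene called in all 6 panels.

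Heat shock raised 5 of the 7 members in siNT cells. DNAJB4 rose 4.25-fold, DNAJB1 2.57-fold, DNAJB2 2.39-fold, DNAJA1 1.62-fold and DNAJB6 1.33-fold, while DNAJA2 and DNAJC7 did not pass the test. These 5 rises among 7 members stand beside 281 rises among 9831 tested genes (2.86%), with 4.09% called in either direction. Fibroblast and endothelial genes (4 of 5 listed, VWF not among them) summed to 268 to 319.8 in siNT heat shock libraries and 357 to 389 in siNT basal libraries, and their part in these rises was not tested. Epithelial and mesenchymal sums overlapped between these groups. The median SE of an effect was 0.19 in this table of 3 libraries per group, against 0.39 in the MG132 table of 2. The effects of MG132 and heat shock come from separately normalised tables, and the difference between them was not tested.

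DNAJB1 had 2653, 3089 and 3356 normalised counts in the siNT heat shock libraries, against 1182, 1259 and 1083 in the siNT basal libraries. The groups were far apart (1.36 ± 0.08, adjusted p = 9.2e-16). DNAJB4 had 51.4, 58.3 and 44.9 in siNT heat shock libraries, against 10.1, 8.31 and 16.9 in siNT basal libraries. Every shocked library was above every basal one, at a low level where 1 read is worth 0.45 to 2.14 normalised counts (2.09 ± 0.30, adjusted p = 7.19e-06). GIPC2, which overlaps 38423 bases of DNAJB4 on the same strand, including its 3' end, is not listed in the tables. DNAJB2 had 182, 185 and 146 in siNT heat shock libraries, against 80.3, 66.6 and 65.8 in siNT basal libraries, again with no overlap (1.26 ± 0.14, adjusted p = 2.62e-08).

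DNAJA1 and DNAJB6 rose less than 2-fold, and DNAJA2 and DNAJC7 did not pass the test. DNAJA1 had 382, 331 and 351 normalised counts in siNT heat shock libraries, against 213.5, 212 and 228 in siNT basal libraries. All shocked libraries were higher (0.70 ± 0.10, adjusted p = 7.46e-06). DNAJB6 had 434, 448 and 504 in siNT heat shock libraries, against 362, 330.3 and 344 in siNT basal libraries, close but not overlapping (0.42 ± 0.10, adjusted p = 0.0073). DNAJB6 is known to give a nuclear and a cytosolic isoform with different 3' ends, and the tables hold their sum. DNAJA2 had 99.5, 94.95 and 88.6 in siNT heat shock libraries, against 99.6, 85.6 and 80.9 in siNT basal libraries, and DNAJC7 had 743, 768 and 628, against 673, 628 and 624. Both pairs of groups overlapped, and the 95% interval of the fold was 0.867 to 1.31 for DNAJA2 and 0.982 to 1.25 for DNAJC7.

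**Figure D4:**
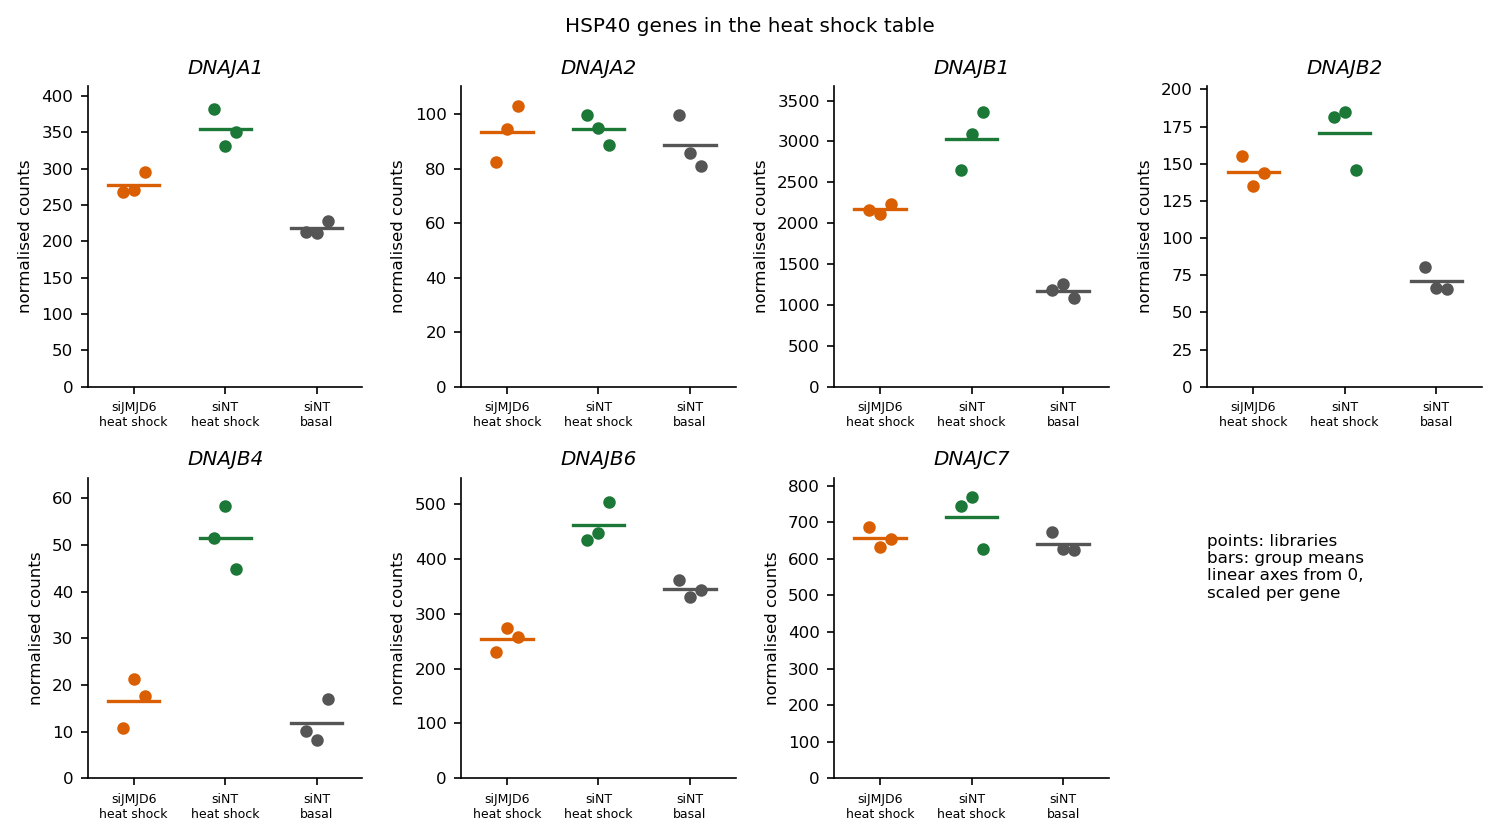
Normalised counts (linear y axes from 0, scaled per gene) of the 7 genes in siJMJD6 and siNT cells after heat shock and siNT basal cells. Points are libraries (3 per group) and bars are group means. DNAJB6 in siJMJD6 cells lies below both siNT groups, and DNAJB2 in siJMJD6 cells lies near the shocked siNT level.

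After heat shock, siJMJD6 cells had less of 4 members than siNT cells. DNAJB4 was 3.09-fold lower, DNAJB6 1.82-fold, DNAJB1 1.39-fold and DNAJA1 1.27-fold. In this comparison 46.4% of the 9831 tested genes were called and 24.9% fell, so 4 falls among 7 members stand beside a high background. DNAJB4 had 10.7, 21.3 and 17.6 normalised counts in the siJMJD6 heat shock libraries, against 51.4, 58.3 and 44.9 in the siNT heat shock libraries. No knockdown library reached the lowest siNT library (-1.63 ± 0.30, adjusted p = 3.01e-05). DNAJB6 had 230.4, 274 and 257 in siJMJD6 libraries, against 434, 448 and 504 in siNT libraries, a gap wider than the spread of either group (-0.86 ± 0.10, adjusted p = 5.66e-09).

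DNAJB1 had 2157, 2111 and 2239 normalised counts in the siJMJD6 heat shock libraries, against 2653, 3089 and 3356 in the siNT heat shock libraries. The knockdown libraries were tightly grouped below the siNT libraries (-0.48 ± 0.08, adjusted p = 5.12e-06). DNAJA1 had 267, 271 and 295 in siJMJD6 libraries, against 382, 331 and 351 in siNT libraries, also with no overlap (-0.35 ± 0.10, adjusted p = 0.00441). DNAJB2 had 155, 135 and 144 in siJMJD6 libraries, against 182, 185 and 146 in siNT libraries, which overlapped (-0.23 ± 0.14, adjusted p = 0.163, interval of the fold 0.703 to 1.03). DNAJC7 had 686, 632 and 655, against 743, 768 and 628, with an interval of 0.820 to 1.04. DNAJA2 had 82.4, 94.5 and 103, against 99.5, 94.95 and 88.6, with an interval of 0.803 to 1.21 and an effect of -0.02 that took the other sign under both alternative scalings. Fibroblast and endothelial genes summed to 112 to 158 in the siJMJD6 libraries and 268 to 319.8 in the siNT libraries after heat shock, and epithelial genes to 2656 to 2884 in the siJMJD6 and 2317 to 2507 in the siNT libraries, while mesenchymal sums overlapped. The part of these lists in the results was not tested.

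Measured against siNT basal cells, shocked siJMJD6 cells had 3 members higher and 1 lower, where 22.2% of tested genes rose, 24.2% fell and 46.3% were called in all. DNAJB2 stood 2.03-fold above basal (adjusted p = 1.36e-07), DNAJB1 1.85-fold (adjusted p = 1.56e-11) and DNAJA1 1.27-fold (adjusted p = 0.00455). DNAJB6 was lower than in unstressed siNT cells, with 230.4, 274 and 257 normalised counts in the siJMJD6 heat shock libraries, against 362, 330.3 and 344 in the siNT basal libraries (-0.45 ± 0.10, adjusted p = 0.000314). DNAJB4, at 10.7, 21.3 and 17.6 against 10.1, 8.31 and 16.9, overlapped the basal libraries (0.46 ± 0.30, adjusted p = 0.21). The fibroblast and endothelial sums given above were also lower in these siJMJD6 libraries than in basal ones, which was not tested as a part of these results.

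The order of group means differed between members. In the heat shock table DNAJB1 and DNAJA1 were highest in shocked siNT cells, intermediate in shocked siJMJD6 cells and lowest in basal siNT cells, and each step passed the test. For DNAJB6 the middle and lowest places were exchanged, with basal siNT cells above shocked siJMJD6 cells, and each step again passed. DNAJB2 had its shocked groups together above basal, and DNAJB4 had shocked siJMJD6 and basal siNT cells together below shocked siNT cells. In the MG132 table DNAJB1 was ordered siNT MG132, siJMJD6 MG132, siNT DMSO and HSF1 KO MG132, and the first step alone passed the test. For the other 6 members no step between neighbouring groups of that table passed the test.

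J-domain genes outside the 7 members were counted in the same comparisons. Heat shock raised 2.86% of all tested genes in siNT cells, with 4.09% called in either direction. Among 16 listed further cytosolic or nuclear J-domain genes, 12 were tested after heat shock and 1 rose, DNAJA4, a stress-inducible relative of DNAJA1 (1.24 ± 0.27, adjusted p = 0.00302). Among 12 J-domain genes of the endoplasmic reticulum (ER), 2 rose after heat shock, DNAJB9, a partner of the ER HSP70 BiP (1.30 ± 0.23, adjusted p = 0.000218), and DNAJB11, another BiP partner (0.66 ± 0.10, adjusted p = 1.4e-05). Of 6 tested mitochondrial J-domain genes limma called 0 after heat shock, with 1 at an unadjusted p under 0.05. The median effect of heat shock was 0.70 over the 7 cytosolic HSP40 genes, 0.02 over the further cytosolic or nuclear genes, 0.04 over the ER genes, -0.04 over the mitochondrial genes and 0.00 over all tested genes. The members and these 3 lists were chosen with earlier results of these data known, so the contrast is a description and not a test. Under MG132 limma called 0 of the 10, 12 and 6 tested genes of these 3 lists in siNT cells, with 0 at an unadjusted p under 0.05. Over all tested genes 0.266% were called in that comparison.

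In siJMJD6 against siNT cells under MG132, 2 of 10 further cytosolic or nuclear J-domain genes and 1 of 12 ER genes fell, and 2 of 6 mitochondrial genes rose, where 13.6% of all tested genes were called. After heat shock 3 of 12 further cytosolic or nuclear genes fell and 2 rose, 1 of 12 ER genes fell and 1 of 6 mitochondrial genes rose, where 24.9% of all tested genes fell and 46.4% were called. DNAJC30, a mitochondrial J protein, averaged 117 normalised counts in siJMJD6 MG132 cells and 16.1 in siNT MG132 cells (2.79 ± 0.43, adjusted p = 0.00147), and 68.6 in siJMJD6 and 20.7 in siNT cells after heat shock (1.74 ± 0.24, adjusted p = 3.47e-07). DNAJB12, a membrane-bound J protein of the ER, averaged 5.91 in siJMJD6 MG132 cells and 28.4 in siNT MG132 cells (-2.08 ± 0.45, adjusted p = 0.0113), and 12.7 in siJMJD6 and 27.0 in siNT cells after heat shock (-1.03 ± 0.27, adjusted p = 0.00183). HSF1 KO against siNT cells under MG132 had 0 genes of the 3 lists called by limma, with 1 cytosolic or nuclear and 1 ER gene at an unadjusted p under 0.05. Over all tested genes 1.28% were called there.

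**Figure D5:**
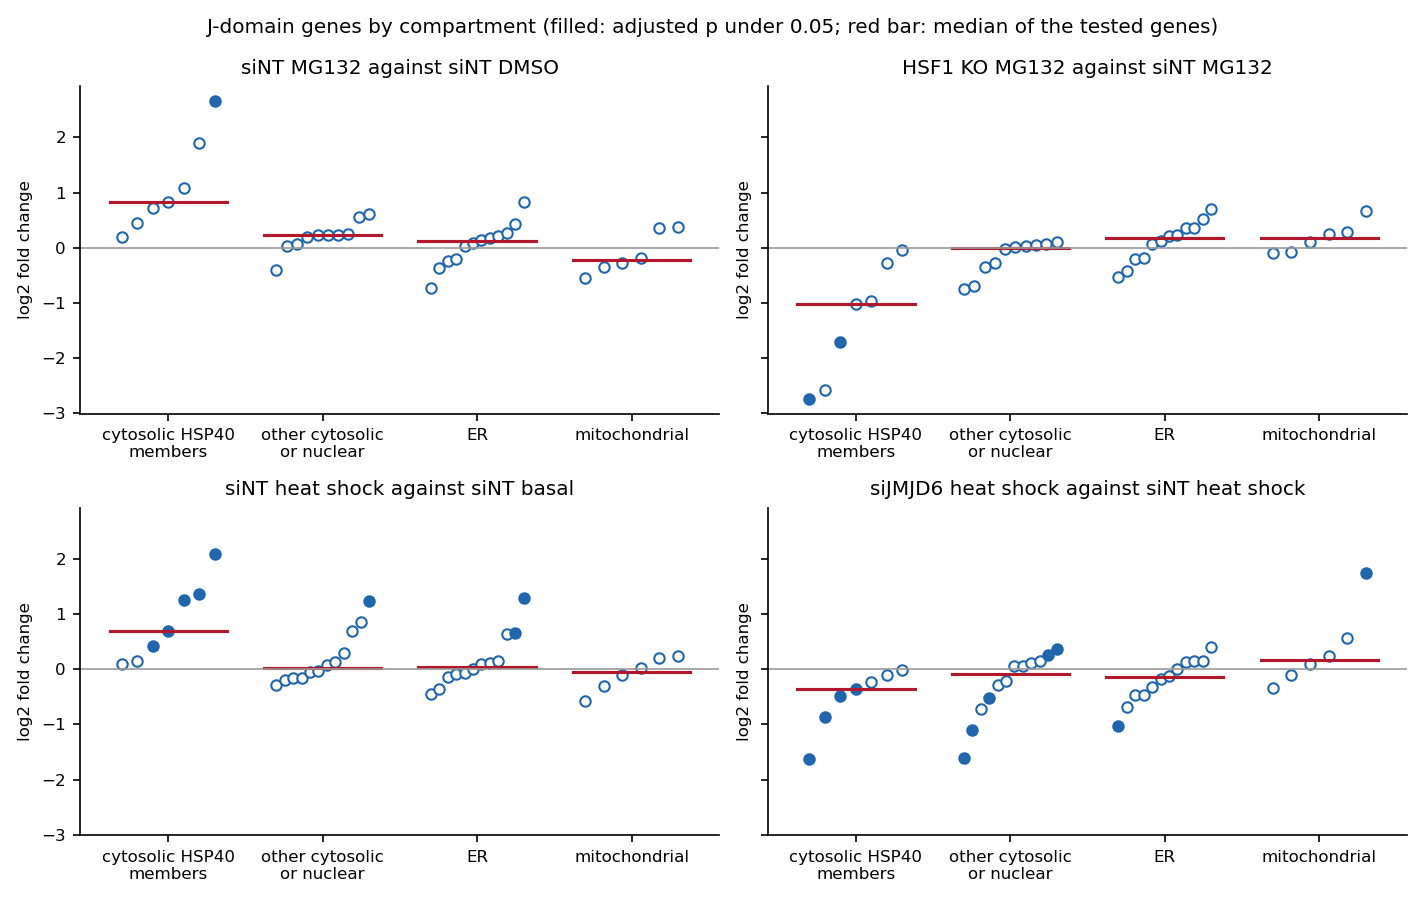
Log2 fold changes (y axis, first group minus second) of the J-domain genes by compartment in 4 comparisons. Points are tested genes, filled where the adjusted p was under 0.05, and red bars are medians of the tested genes. In siNT cells after heat shock the median was 0.70 for the 7 cytosolic HSP40 genes and 0.02, 0.04 and -0.04 for the other 3 lists. Members and lists were chosen with earlier results of these data known.

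The HSP70 partners and their cofactors give the setting of these values. Among 6 tested cytosolic HSP70 genes MG132 raised 2 in siNT cells, where 0.205% of all tested genes rose. These were HSPA1A and HSPA1B, near-identical copies whose tags may not be separable (3.53 ± 0.38 and 3.69 ± 0.30, adjusted p = 0.000455 and 0.000115). In HSF1 KO cells under MG132 both were lower than in siNT cells (-5.60 ± 0.38 and -5.12 ± 0.30, adjusted p = 4.96e-06 and 1.84e-06), where 1% of all tested genes were lower. In siJMJD6 cells under MG132 they were lower by -2.47 ± 0.38 and -2.38 ± 0.30 (adjusted p = 0.00147 and 0.000472), and the constitutive HSPA8 by -1.65 ± 0.34 (adjusted p = 0.00848). Of all tested genes 7.35% were lower in that comparison and 13.6% were called. After heat shock, of 5 tested HSP70 genes 2 were higher and 1 lower in siJMJD6 than in siNT cells, where 46.4% of all tested genes were called. HSPA1B was the lower one (-0.68 ± 0.08, adjusted p = 2.19e-08), whereas HSPA1A was among the higher ones (0.21 ± 0.08, adjusted p = 0.0419).

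Of 12 exchange factors and cofactors of HSP70, 1 rose with MG132 in siNT cells (0.205% of all tested genes rose), namely BAG3, which links HSP70 to selective autophagy (2.61 ± 0.43, adjusted p = 0.0169). In HSF1 KO cells under MG132 5 fell relative to siNT cells, where 1% of all tested genes fell. Among them were HSPH1, an HSP110 exchange factor that works with HSP40 in disaggregation (-4.46 ± 0.33, adjusted p = 1.21e-05), and BAG3 (-3.78 ± 0.43, adjusted p = 0.000409). ST13, which stabilises the client-bound state of HSP70, also fell (-1.35 ± 0.23, adjusted p = 0.0103). In siJMJD6 cells under MG132 1 of the 12 fell, again BAG3 (-2.73 ± 0.43, adjusted p = 0.00181), where 7.35% of all tested genes fell. Heat shock raised 5 of the 12 in siNT cells, where 2.86% of all tested genes rose, led by BAG3 (2.03 ± 0.09, adjusted p = 2.19e-18) and HSPH1 (1.19 ± 0.08, adjusted p = 1.95e-14). After heat shock 6 of the 12 were lower in siJMJD6 than in siNT cells, including STIP1, which bridges HSP70 and HSP90 (-0.92 ± 0.08, adjusted p = 4.97e-11), where 24.9% of all tested genes were lower and 46.4% were called.

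Genes with the most similar pattern were found by the mean of Pearson's r over the 8 libraries of the MG132 table and the 9 of the heat shock table, among 4386 genes with a mean of at least 50 in both. These values describe libraries that share their groups, and no test was made. HSPA1B, BAG3 and TBX3 came first for DNAJB1 (mean r = 0.94, 0.94 and 0.938), and HSPA1B, BAG3 and SMAD1 for DNAJA1 (0.967, 0.937 and 0.936). For DNAJB2 they were NUDC, DEDD2 and HSPH1 (0.953, 0.949 and 0.943). YWHAG, AZIN1 and SHMT2 were closest to DNAJB6 (0.94, 0.923 and 0.892), and MANF, SGSM3 and PDIA6 to DNAJB4 (0.868, 0.835 and 0.821). The closest genes reached lower values for DNAJA2 (NSUN5, NOP58 and MRPL22 at 0.768, 0.669 and 0.658) and DNAJC7 (ACIN1, TNPO1 and RERE at 0.797, 0.77 and 0.755). Among the members DNAJA1 and DNAJB1 were closely alike, with r = 0.943 over the MG132 libraries and 0.925 over the heat shock libraries.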

How the data were processed

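Messenger RNA of PC3M cells was measured with QuantSeq FWD in 17 libraries of 7 groups, assigned from the labels, and all data columns were matched to a label. The signal values are normalised counts deposited by the authors in 2 separately normalised tables. The submitters' processing notes name build hg38, FastQC 0.11.2, STAR 2.6.0 and HTSeq, with roles taken from usual purpose. Annotation, strand setting and scaling method were not given in the sources used here. Because the values are not whole counts, log2(value + 1) was fitted with limma 3.58.1 in R 4.3.3 (trended moderated variance, all groups of a table together). Genes with at least 10 normalised counts in 2 (MG132 table) or 3 (heat shock table) libraries were tested, 9778 and 9831, and p-values were adjusted by Benjamini-Hochberg over all of them in each of 9 comparisons, all pairs of groups within a table, and called under 0.05. Fold changes of low genes are understated by the pseudocount. The fit was tested on simulated data. Alternatives were a pseudocount of 10, no filter, 2 scalings, fits of only the libraries compared, each library left out and a replicate block.

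Named genes are the 7 members, JMJD6 and HSF1, some of the first 4 called genes per list by smallest adjusted p, and the 3 genes most like each member. The members and the 5 lists, written from general knowledge, were chosen with earlier results of these data known, and the promoter motifs after the files had been read. Gene positions are from GENCODE 29 and promoter sequences from RefSeq (GRCh38.p14). One list of cell type markers is not reported here.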

Additional observations from a re-analysis of the deposited data

How the results depend on the processing

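Across 9 comparisons and all alternatives, 841 of 870 fold changes of the 7 genes kept their direction and side of the threshold, 6 lost a call, 4 gained one and 19 changed direction, of which 0 were of a called gene. Of the 870, 513 came from leaving out 1 library, often one outside the comparison, where the fold change itself cannot move. The 841 therefore say little about single calls. All lost calls were of DNAJB6 in siJMJD6 against siNT or DNAJB2 in HSF1 KO against siNT, both under MG132. Without the filter on low values, more genes were tested and fewer genes were called: 6 for siNT MG132 against siNT DMSO, 675 for siJMJD6 against siNT under MG132 (1 member, DNAJB6 at adjusted p = 0.0509), 29 for HSF1 KO against siNT under MG132 (1 member, DNAJB2 at 0.107), 739 for siJMJD6 MG132 against siNT DMSO and 6 for HSF1 KO MG132 against siNT DMSO. With only the libraries compared in the fit, the last 4 had 687, 213, 743 and 224 genes. The labels of siNT DMSO, siNT MG132 and siJMJD6 MG132 share the prefix X1 or X2, without saying what it marks. Same-numbered libraries correlated in their deviations at 0.0447 to 0.368 (MG132 table) and -0.0348 to 0.0943 (heat shock table). The main fit did not take them as pairs, because no batch is stated, but a shared batch in the MG132 table remains possible. With a replicate block on the numbered libraries 41 genes were called for siNT MG132 against siNT DMSO, and 1 member (DNAJB2, adjusted p = 0.0266) for siJMJD6 MG132 against siNT DMSO; no other member's call changed. HSF1 KO libraries carry letters, so their comparisons have no such fit. Leaving out 1 library at a time gave 10 to 32 genes for siNT MG132 against siNT DMSO, 349 to 1299 (1 to 2 members) for siJMJD6 against siNT under MG132, 43 to 181 (1 to 2 members) for HSF1 KO against siNT, 653 to 2017 (1 to 2 members) for HSF1 KO against siJMJD6, 425 to 1591 (0 to 1 member) for siJMJD6 MG132 and 30 to 144 for HSF1 KO MG132 against siNT DMSO. Where this left 1 library in a group, it was assumed to vary like the others. Uncalled effects that changed direction when a library was left out ranged, for DNAJC7, from -0.021 to 0.43 (siNT MG132 against siNT DMSO), -0.14 to 0.31 (siJMJD6 against siNT under MG132), -0.57 to 0.021 (HSF1 KO against siNT) and -0.37 to 0.22 (HSF1 KO against DMSO); for DNAJA2, from -0.35 to 0.28 (HSF1 KO against siNT), -0.093 to 0.065 (siJMJD6 against siNT after heat shock) and -0.0012 to 0.16 (siJMJD6 heat shock against siNT basal); for DNAJB2, from -0.092 to 0.30 (siJMJD6 against siNT under MG132); and in HSF1 KO against DMSO, from -0.31 to 0.16 for DNAJB1, -1.70 to 0.33 for DNAJB4 and -0.30 to 0.44 for DNAJB6. Scaling to the same total shifted the median of all genes by -0.14, -0.15 and -0.11 in siNT MG132, siJMJD6 MG132 and HSF1 KO MG132 against DMSO, with 15 higher and 8 lower, 436 and 926, and 27 and 67 calls, against 20 and 6, 606 and 702, and 36 and 55. It turned DNAJA2 in siJMJD6 MG132 against DMSO (-0.065) and DNAJB6 in HSF1 KO against DMSO (-0.045), and both scalings turned DNAJA2 in siJMJD6 against siNT after heat shock (0.022 by median ratios, 0.019 by totals). The causes were not tested. Few libraries per group and the few reads of DNAJB4 limit the MG132 table.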
